A study of Mus musculus with 32 samples.

Results

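Lungs of Gsr-KO mice that had breathed 100% oxygen from birth were compared between postnatal day 5 (P5), when the exposure ended, and postnatal day 56 (P56), after recovery in room air. All arrays labelled as Gsr-KO, hyperoxia and P5 or P56 were used, 3 at each age, which is 6 of the 32 arrays of the series. The study profiled lungs of Gsr wild-type (Gsr-WT) and Gsr-KO mice, both listed as strain C3H/HeN, on Affymetrix mouse genome arrays, with groups at embryonic day 19 (E19), P5 and P56. The postnatal groups had been kept in air or in continuous 100% oxygen (hyperoxia) with their dams from day 0 to day 5. The mice compared here were young animals taken at the end of 5 days of oxygen and adults exposed in the same way and then returned to room air until P56. The Gsr-KO groups kept in room air and the Gsr-WT groups given oxygen, 3 arrays at each age in each, served to show where the change differed. By the labels each array carried RNA from part of the lung of 1 mouse, and the mice of the 2 ages were different animals. The p-values rest on the spread between arrays within groups, pooled over all 32 arrays and not only the 6 compared. Age and the time since the exposure cannot be told apart in this design.

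Gsr encodes glutathione reductase, the enzyme that regenerates reduced glutathione at the expense of NADPH, and thioredoxin-dependent routes can serve the same end in its absence. The mouse lung is born without true alveoli. They form in the weeks after birth, when fibroblasts, endothelium and epithelium multiply and myofibroblasts lay down elastin at the tips of new septa, while the adult lung is largely quiescent and holds resident immune cells that the newborn lung lacks. Breathing high oxygen at this age injures the lung, slows the growth of septa, and is known to raise p53 target genes, which stop the cell cycle, and antioxidant genes under the transcription factor NRF2.

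Values are deposited array signals on a linear scale, and a change is the difference of mean log2 values, P56 minus P5, so that a positive change is a higher level in the adult. A gene is "called" when the adjusted p of limma, a linear model fitted to all 32 arrays, is under 0.05 over the 13345 genes tested. When all 3 arrays at 1 of the ages read below 100.4 units, which is the median signal of the series, the fitted size of a change is set in part by the constant that precedes the logarithm. For such genes "at least" (rises) or "bounded at" (falls) gives the change computed with that age placed at 100.4 units. Array values are given in the order of replicates 1, 2 and 3. Dlgap5, Col8a1, Lmod1, Emp2, Calcrl, Rsad2, Rrm2b, Tigar, Fth1, Gpx8, Prdx4, Rptn, Tmem26, Kdm3a, Pfkfb4, Myc and Npas2 lie outside the naming rule and were named after their values were seen.

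The Gsr probe set read 138, 161 and 161 units at P5 and 188, 234 and 257 at P56, against a range of 498 to 1541 over the Gsr-WT arrays of all ages, so all 6 arrays carried the low level of their label. The Gsr change of 0.48 between the ages was called (adjusted p = 0.0489) and was not called without P5 replicates 1, 2 or 3 or P56 replicates 2 or 3. The lung marker Sftpc, a surfactant protein of alveolar type 2 cells, was high on all 6 arrays, at 14817, 16588 and 16068 units at P5 and 19118, 22806 and 28636 at P56. Sex is not among the labels. Xist, the RNA of the inactive X chromosome, read 97.0 and 129 units on P5 replicates 1 and 2 and between 9345 and 12987 on the other 4 arrays. In the groups used for comparison, Gsr-KO air replicate 1 at P56 and Gsr-WT hyperoxia replicate 3 at P5 read high both for Xist (5598 and 5229 units) and for the Y-linked gene Eif2s3y (1396 and 1873), which goes against 1 mouse per array there. The log2 ratio of 3' to 5' control probe sets, a sign of RNA quality, was 0.27 to 0.33 at P5 and 0.54 to 1.55 at P56. Across the log2 values of the 13345 genes tested, P5 replicate 1 correlated as closely with replicate 3 of the Gsr-KO air group at P5 (r = 0.982) as with its own group (r = 0.978 and 0.982). Replicates 2 and 3 correlated at 0.990 with each other. Each count is therefore given with and without P5 hyperoxia replicate 1. By the same measure, replicate 1 of the Gsr-KO air group at P5 lay closer to a Gsr-KO E19 array (replicate 2, r = 0.976) than to its own group (r = 0.952 and 0.961).

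From P5 to P56, 3818 of 13345 genes were called (28.6%), 2164 of them higher (16.2%) and 1654 lower (12.4%) at P56, and 1822 changed by more than 2-fold. Genes of cell division, growth and matrix assembly fell. Genes of airway epithelium and alveolar type 2 cells, of antigen presentation and of lymphocytes rose. With all arrays, the counts for p53 targets, hypoxia genes and the glutathione and thioredoxin systems lay near the shares over all genes. So did those for alveolar type 1 cells, general capillaries and neutrophils. They are given as a description of the genes named. Without P5 replicate 1, 7 of 25 p53 targets were called lower, against 8.86% of all genes. The groups did not overlap for 3775 of the called genes, against 57.2% of all genes tested. Without P5 replicate 1, 2718 genes were called (20.4%), 1536 higher (11.5%) and 1182 lower (8.86%), and 2677 were called with the same direction in both fits. With a covariate for Y-linked expression 4220 genes were called, and with the ratio of 3' to 5' signal as a covariate, added after the data were seen, 5270. The median change over all genes was 0.04. With the arrays centred on their medians, 48.9% of 3226 calls were higher, against 56.7% with the deposited scaling.

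**Figure D1:**
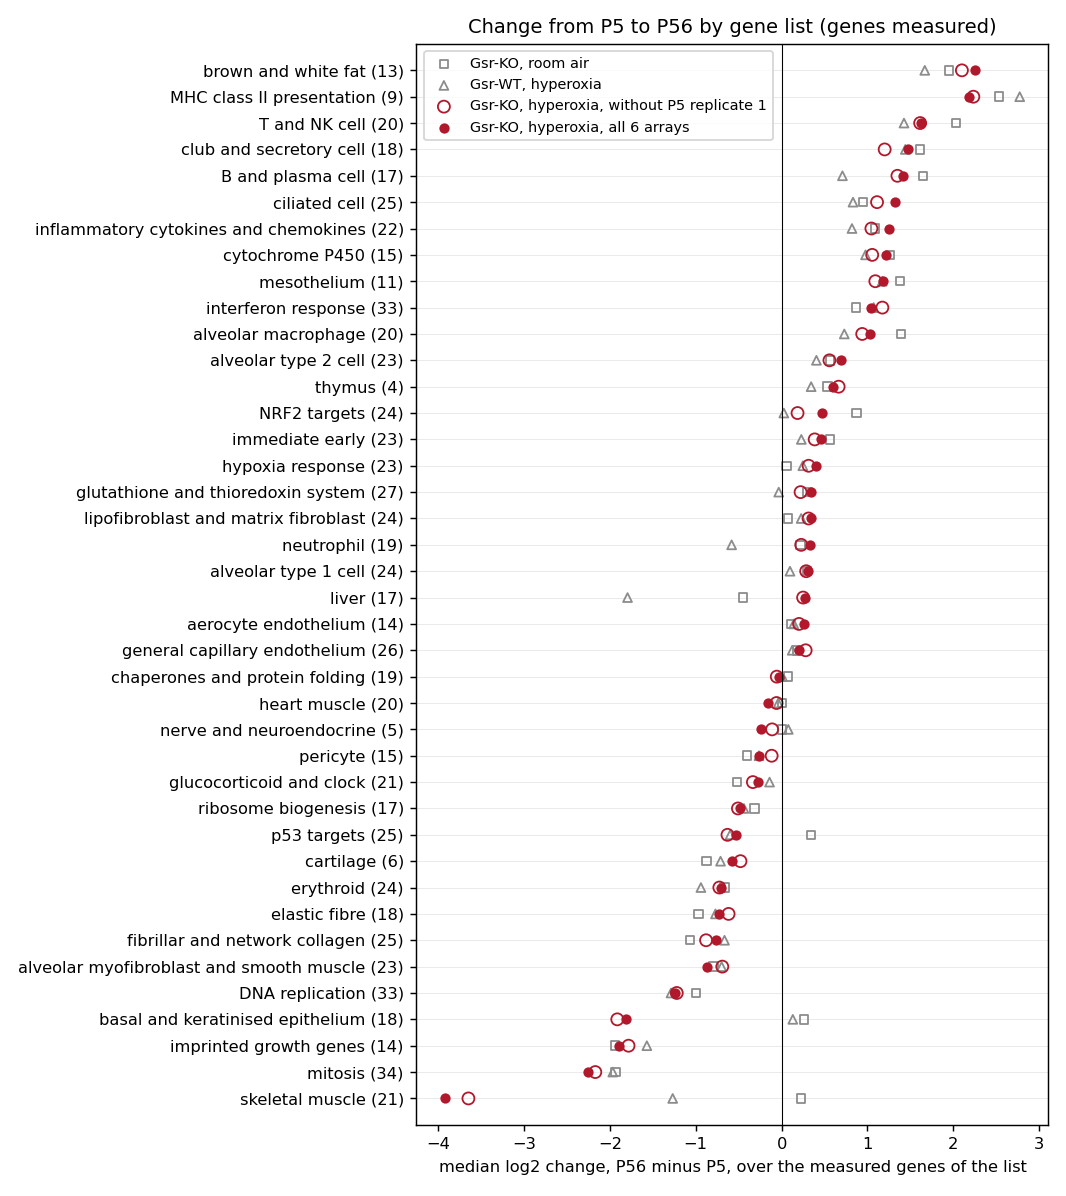
Median log2 change from P5 to P56 (x axis) over the measured genes of each list (y axis, number of genes in parentheses). Filled circles show Gsr-KO after hyperoxia with all 6 arrays and open circles the same without P5 replicate 1, while squares show Gsr-KO in air and triangles Gsr-WT after hyperoxia. The mitosis list lies at -2.26 and the MHC class II list at 2.19 with all arrays. The skeletal muscle and keratinised epithelium lists lie far below their values in air.

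Cell division genes fell almost as a whole. Of 34 measured genes of the mitosis list 33 fell, with a median change of -2.26, and 32 fell without P5 replicate 1. Cdk1, the kinase that drives entry into mitosis, read 2187, 1595 and 1502 units at P5 and 179, 192 and 139 at P56, a change of -3.18 (SE 0.28, adjusted p = 4.81e-09). Ube2c, the ubiquitin-conjugating enzyme of the anaphase-promoting complex, read 2198, 2012 and 1510.5 and then 194, 194 and 193 (change -3.12, SE 0.57). Top2a, the topoisomerase that untangles sister chromatids, read 3524, 2722 and 2666 and then 454, 334 and 348 (change -2.89, SE 0.21). All P5 arrays lay far above all P56 arrays for these genes, and P5 replicate 1 was the highest of its group for each. A second Top2a probe set changed by -0.62 and was not called (limma adjusted p = 0.119). Cdca8 and Birc5, subunits of the chromosomal passenger complex, fell by 2.80 and 2.64, and Nusap1, a protein of the spindle, fell by 2.78. Dlgap5, a spindle protein, was the 1 measured member not called (change -1.11, adjusted p = 0.064).

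The promoters of these genes are known for a pair of short motifs, the CCAAT box read by NF-Y and the cell cycle homology region TTTGAA read by the DREAM complex, so the promoters of the 3 genes of the list with the largest falls are given, from the RefSeq promoter table, with matches to either motif on either strand in capitals. Each runs 5' to 3' on the strand of its gene, from 250 bases before the start to 50 after it. On GRCm38.p6 the Cdk1 promoter is chr10:69352863-69353162 on the minus strand, that of Ube2c is chr2:164769679-164769978 on the plus strand, and that of Top2a is chr11:99024140-99024439 on the minus strand.
Cdk1: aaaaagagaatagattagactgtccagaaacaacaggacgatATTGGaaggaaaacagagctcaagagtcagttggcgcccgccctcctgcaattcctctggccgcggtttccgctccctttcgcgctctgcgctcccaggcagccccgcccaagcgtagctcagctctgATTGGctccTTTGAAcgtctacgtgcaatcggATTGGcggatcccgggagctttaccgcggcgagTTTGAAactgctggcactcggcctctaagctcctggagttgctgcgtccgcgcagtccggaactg
Ube2c: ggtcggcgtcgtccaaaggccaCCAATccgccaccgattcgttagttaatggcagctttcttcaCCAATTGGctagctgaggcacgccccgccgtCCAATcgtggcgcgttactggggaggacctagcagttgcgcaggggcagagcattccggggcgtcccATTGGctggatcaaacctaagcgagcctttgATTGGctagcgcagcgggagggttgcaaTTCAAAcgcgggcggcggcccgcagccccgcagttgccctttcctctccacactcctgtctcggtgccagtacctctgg
Top2a: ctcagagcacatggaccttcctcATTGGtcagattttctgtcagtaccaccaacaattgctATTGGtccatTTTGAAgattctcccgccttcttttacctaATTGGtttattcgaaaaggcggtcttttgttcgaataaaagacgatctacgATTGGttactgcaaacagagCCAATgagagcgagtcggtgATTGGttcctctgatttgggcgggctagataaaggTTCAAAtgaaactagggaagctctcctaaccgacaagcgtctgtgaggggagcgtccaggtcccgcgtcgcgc
The Cdk1 promoter held 3 matches to CCAAT or its reverse complement ATTGG and 2 to TTTGAA or its reverse complement TTCAAA. The Ube2c promoter held 6 and 1, with 1 pair of CCAAT matches sharing letters, and the Top2a promoter 6 and 2. Of 31 promoters in the table for 29 of the 34 measured mitosis genes, 25 held CCAAT (80.7%) and 23 held TTTGAA (74.2%) on either strand. Among all 32851 promoters of the table, each 300 bases long, the shares were 37.4% and 17.9%. A match is a description of the letters and not a measured binding site.

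DNA replication genes followed. Of 33 measured genes 29 fell (median -1.24), and 28 fell without P5 replicate 1. Uhrf1, which brings the maintenance DNA methyltransferase to newly copied DNA, read 1416, 1463 and 1329 units at P5 and 199, 161 and 129 at P56 (change -2.93, SE 0.33, adjusted p = 2.47e-07). Tk1 and Rrm2, which make deoxynucleotides, fell by 2.79 and 2.13. Pole, the leading-strand polymerase, fell by 2.14, Gins2, a part of the replicative helicase, by 1.82, Mcm5, a subunit of the same helicase, by 1.29 and Pcna, the polymerase clamp, by 0.88. In Gsr-KO mice kept in air 33 mitosis genes and 23 replication genes fell over the same ages, and in Gsr-WT mice after hyperoxia 34 and 30. The shares called over all genes in those comparisons were 29.6% (14.3% lower) and 24.1% (10.7% lower). The median difference in change, hyperoxia minus air, was -0.36 for the mitosis list and -0.25 for the replication list. Levels of the lists, centred on each gene's mean over the series, differed among the P5 air arrays. Mitosis read 0.22, 0.94 and 0.97 there and 1.21, 0.83 and 0.75 at P5 after hyperoxia. Replication read -0.33, 0.68 and 0.62 and then 0.68, 0.69 and 0.67. P5 air replicate 1 lay apart for both lists, and its part in these differences was not tested.

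Imprinted genes of fetal and early growth fell together, 12 of 14 with a median of -1.90, and the same number fell without P5 replicate 1. Peg3, a zinc finger protein expressed from the paternal copy, read 5162, 5183 and 5695 units at P5 and 549, 669 and 825 at P56, a change of -2.94 (SE 0.14, adjusted p = 1.28e-13). Igf2, the fetal insulin-like growth factor, read 3728, 3119 and 4035 and then 427, 352 and 349.7 (change -3.18, SE 0.42). Dlk1, a Notch-related protein that holds back adipocyte differentiation, read 1789, 1105 and 1294 and then 97.5, 65.0 and 55.6 (change -3.84, bounded at -3.46). The ages did not overlap for any of these genes on these probe sets. A second Dlk1 probe set changed by -0.81 and was not called (limma adjusted p = 0.178). Mest fell by 2.99, Nnat by 2.58 and Cdkn1c, an inhibitor of cyclin-dependent kinases, by 1.79.

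Genes for elastic fibres and fibrillar collagen fell in part. In the elastic fibre list 9 of 18 genes fell and 1 rose, with 7 falling without P5 replicate 1. Fbn2, the fibrillin of developing tissue, read 3649, 3142 and 2807 units at P5 and 75.0, 76.7 and 115 at P56, a change of -4.82 (SE 0.31, adjusted p = 5.32e-11) and the largest fall among the genes of the naming rule that are outside the muscle and keratinised epithelium lists. Eln, elastin itself, read 12645, 13235 and 14356 and then 4627, 3351 and 3680.5 (change -1.79, SE 0.17). A second Eln probe set fell by 4.31 (limma adjusted p = 0.00986), so the size of the fall differed between probe sets. Lox, which crosslinks elastin and collagen, changed by -0.65 (adjusted p = 0.0649), and Efemp1, a fibulin, was the member that rose (2.01, SE 0.31). Of 25 collagen genes 14 fell and 1 rose (Col8a1, by 1.01), with 13 falling without P5 replicate 1. Col1a1, a chain of type I collagen, read 8074, 6697 and 5979 units at P5 and 1057, 806 and 971 at P56 (change -2.84, SE 0.37). Col5a1, Col14a1 and Col4a1 fell by 2.09, 1.34 and 1.02. Col3a1, the chain of type III collagen, changed by -0.01 (adjusted p = 0.969) between the ages by the brightest of its probe sets, whereas another fell by 1.13 (adjusted p = 0.0076).

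Markers of the cells that build septa moved with the matrix genes. In the list for alveolar myofibroblasts and smooth muscle 12 of 23 fell and 2 rose (Pdgfra, and Lmod1, which was not called without P5 replicate 2 or P56 replicate 3), and 8 fell without P5 replicate 1. In bulk lung RNA, fewer cells of a type and less RNA per cell cannot be told apart, here and in all lists below. Hhip, an antagonist of hedgehog ligands, read 2051, 2025 and 1984 units at P5 and 299, 211 and 262 at P56 (change -2.86, SE 0.31, adjusted p = 1.07e-07). P2ry14, a receptor for UDP-sugars, read 4610.3, 1729.5 and 1473 and then 463, 533 and 432 (change -2.20, SE 0.44), with P5 replicate 1 highest and a change of -1.70 without it. Wnt5a, a Wnt ligand of lung mesenchyme, fell by 2.04, Actg2, smooth muscle gamma actin, by 1.83 and Aspn, a small matrix proteoglycan, by 1.74. Acta2, smooth muscle alpha actin, changed by -0.41 (adjusted p = 0.194). Of 24 markers of lipofibroblasts and matrix fibroblasts 11 rose and 6 fell, and without P5 replicate 1 8 and 4. Inmt, a methyltransferase abundant in adult lung fibroblasts, read 1428, 1309 and 2808 units at P5 and 20411, 23607 and 29963 at P56 (change 3.79, SE 0.26, adjusted p = 7.54e-11). Adh1, an alcohol dehydrogenase, and Tcf21, a fibroblast transcription factor, fell by 1.45 and 1.12. Pdgfra, a growth factor receptor of fibroblasts and myofibroblasts, rose by 1.25 with groups that overlap, at 3885, 1412 and 1052 units at P5 and 5185, 3738 and 4132 at P56. It rose by 1.80 without P5 replicate 1 and was not called without P5 replicate 3.

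Airway epithelium genes rose. In the list for club and secretory cells 15 of 18 genes rose and 1 fell (median 1.47), and 12 rose without P5 replicate 1. Bpifa1, a secreted antimicrobial protein of the upper airway, had the largest rise of all named genes. It read 19.0, 252 and 37.4 units at P5 and 9135, 4701 and 12075 at P56, a change of 6.44 (SE 1.15, adjusted p = 0.000122), and the P5 arrays spread widely with replicate 2 highest. Scgb3a1, a secretoglobin of airway secretory cells, showed the same order of arrays, 200.2, 2781 and 283 units at P5 and 18812, 18834 and 25239 at P56 (change 5.16, SE 1.10). Pigr, the receptor that carries polymeric immunoglobulin across epithelium, read 210.0, 111 and 156 and then 4385, 4552 and 3937 (change 4.57, SE 0.57, adjusted p = 1.09e-06). Bpifb1, a relative of Bpifa1, rose by 4.34 (SE 0.77) and Sult1d1, a sulfotransferase, by 5.04 (SE 0.81). The member of the list that fell was Krt15, which stands with the keratins below.

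Cytochrome P450 genes, which metabolise drugs, steroids and retinoids, were among those that rose, 10 of 15 with a median of 1.22, and 9 rose without P5 replicate 1. Cyp2b10, a monooxygenase of club cells, read 217, 398 and 503 units at P5 and 6912, 6826 and 7297 at P56 (change 4.21, SE 0.34, adjusted p = 1.09e-09), and rose by 4.46 in air and 4.30 in Gsr-WT mice after hyperoxia. Cyp4b1 and Cyp2f2, also of airway cells, rose by 2.06 and 1.07. Cyp26b1, which degrades retinoic acid, read 209.8, 70.2 and 107 units at P5 and 1413, 661 and 708 at P56 in the mice given oxygen (change 2.63, SE 0.44, adjusted p = 6.04e-05), whereas in Gsr-KO mice kept in air it read 515, 256 and 272 and then 215, 557 and 329 (change 0.04). The difference between these changes was 2.59 (SE 0.63) and was not called (adjusted p = 0.178).

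Of 25 ciliated cell genes 20 rose (median 1.32), and 15 without P5 replicate 1. Ccdc39, which sets the repeat of the ciliary axoneme, read 212, 346 and 244 units at P5 and 882, 1289.7 and 1427 at P56 (change 2.06, SE 0.38). Rsph4a, a radial spoke protein, and the dynein chains Dnali1 and Dynlrb2 rose by 1.95, 1.66 and 1.63. Foxj1, the master regulator of motile cilia, changed by 1.32 and was not called (adjusted p = 0.0613).

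Genes of alveolar epithelium rose in part. In the alveolar type 2 list 14 of 23 genes rose, and 10 without P5 replicate 1. Scd1, a fatty acid desaturase used in surfactant lipid synthesis, read 5845, 6805 and 6338 units at P5 and 21691, 23526 and 28302 at P56 (change 1.94, SE 0.21, adjusted p = 1.39e-07). Chil1, a chitinase-like protein, rose by 1.41, Il33, an alarmin, by 1.38 and Hc, complement component C5, by 1.02. Of the surfactant proteins, Sftpc rose by 0.55 with all arrays and was not called without P5 replicate 1 or P56 replicate 3, after quantile normalization or after centring, and Sftpb changed by 0.29 (adjusted p = 0.737). Of 24 alveolar type 1 genes 5 rose (Hopx, Pdpn, Ahnak, Ager and Emp2) and 1 fell (Col4a4), and without P5 replicate 1 4 and 1. These counts lie near the shares over all genes (16.2% higher and 12.4% lower). Hopx, a homeodomain protein, and Pdpn, a membrane glycoprotein, rose by 0.84 and 0.86, while the water channel Aqp5 changed by 0.52 (adjusted p = 0.316). Col4a4 was not called without P5 replicates 2 or 3 or P56 replicate 1, Emp2 without P5 replicate 1 or P56 replicate 3, and Ager after quantile normalization. In the general capillary list 4 genes rose (Adgrf5, Vwf, Ptprb and Calcrl) and 3 fell (Lyve1, Nos3 and Cd93) of 26, and without P5 replicate 1 5 and 1, with Adgrf5, an adhesion receptor, higher by 1.10 and Lyve1, a hyaluronan receptor, lower by log2 -1.35. With all arrays neither share exceeds that over all genes. Without P5 replicate 1 the shares over all genes were 11.5% higher and 8.86% lower, and 5 of 26 lies above the first. Vwf was not called without P56 replicate 3, Calcrl with the median of its probe sets, and Nos3 and Cd93 without any 1 of P5 replicates 1 to 3 or P56 replicates 2 and 3.

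**Figure D2:**
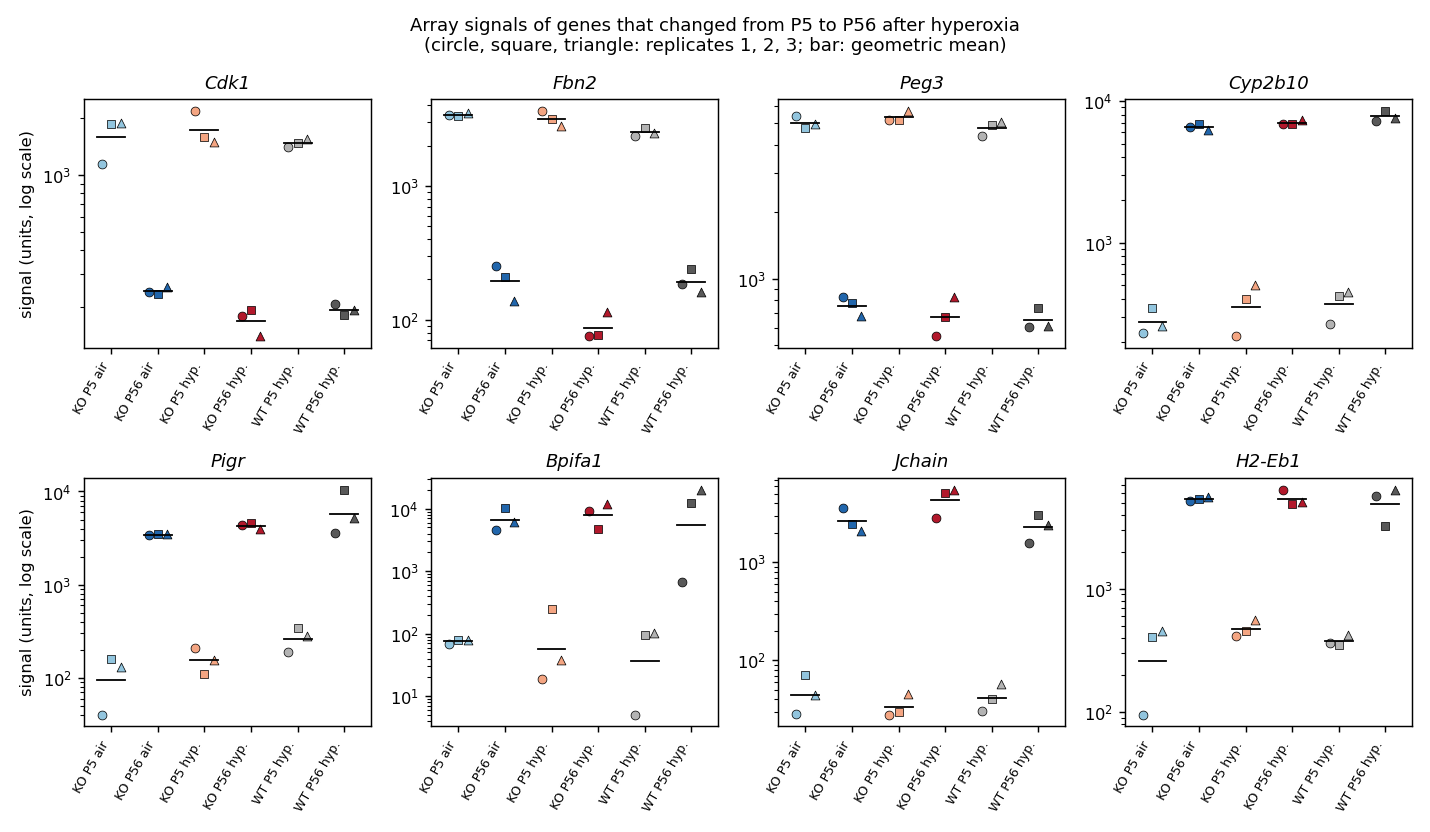
Signal of 8 genes (y axis, units, log scale) on each array of Gsr-KO in air, Gsr-KO after hyperoxia and Gsr-WT after hyperoxia (hyp.) at P5 and P56. Points are arrays and bars geometric means of 3. In the Gsr-KO hyperoxia groups the 3 arrays of an age do not overlap those of the other age for any of the 8 genes, with Cdk1 between 1502 and 2187 units at P5 and between 139 and 192 at P56.

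Immune genes rose in several classes. All 9 measured genes of antigen presentation by MHC class II rose (median 2.19), and 8 without P5 replicate 1. H2-Eb1, a class II chain, read 411, 456 and 559 units at P5 and 6377, 4889.8 and 5044 at P56 (change 3.45, SE 0.32, adjusted p = 1.22e-08). H2-Ab1, H2-Aa and Cd74, the invariant chain, rose by 2.97, 2.75 and 2.02. Lymphocyte markers rose too, 17 of 20 for T and NK cells and 14 of 17 for B and plasma cells, and 16 and 13 without P5 replicate 1. Gzma, a granule protease of cytotoxic cells, read 142, 181 and 202 and then 1602, 2274 and 2620.1 (change 3.43, SE 0.47). Ccl5, a chemokine of the same cells, rose by 2.87, Cd3e, a chain of the T cell receptor complex, by 1.52 and Ms4a1, the B cell antigen CD20, by 1.78.

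Antibody genes had the largest rises of the immune classes. Igha, the constant region of immunoglobulin A, read 13.3, 50.6 and 42.6 units at P5 and 4778, 4195 and 4713 at P56, a change of 6.27 (SE 0.44, adjusted p = 1.03e-10) and of at least 5.18. Jchain, which joins immunoglobulins into polymers, read 27.5, 30.0 and 45.1 and then 2827, 5176 and 5545 (change 6.18, SE 0.41, at least 5.10). Ighm, the constant region of immunoglobulin M, read 359, 648 and 628 and then 7877, 10747 and 14605 (change 4.28, SE 0.81). On these probe sets all adult arrays were high and all P5 arrays low, as they were for Pigr, the receptor of these polymers. Other Ighm probe sets changed by 2.64, 0.68 and 0.05, and the last was not called (limma adjusted p = 0.898). The size of the Ighm rise thus differed between probe sets. In air Igha, Jchain and Ighm rose by 6.48, 5.21 and 3.73.

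Interferon response genes rose in 19 of 33 cases and 1 fell (Rsad2, by 1.20), with a median of 1.04 and 18 rising without P5 replicate 1. Rsad2 was not called without any 1 of P5 replicates 1 to 3 or P56 replicates 1 and 2. Ifi27l2a, an interferon-induced membrane protein, read 491, 553 and 542 units at P5 and 2646, 6152 and 8613 at P56 (change 3.24, SE 0.35), with P56 replicate 1 lowest of the adults. Ifit1 and Ifit3, which bind viral RNA or its partners, rose by 2.08 and 1.72, and Ifih1, a sensor of double-stranded RNA, by 2.02. Of 22 cytokines and chemokines 15 rose, and 12 without P5 replicate 1. Among them Cxcl13, which draws B cells, rose by 2.36, Il1b by 1.67 and Cxcl1, which draws neutrophils, by 1.38.

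In the alveolar macrophage list 14 of 20 genes rose, and 9 without P5 replicate 1. Chil3, a chitinase-like protein of alveolar macrophages, read 99.2, 264 and 147 units at P5 and 5206, 5665 and 6533 at P56 (change 4.97, SE 0.55, adjusted p = 1.77e-07). Siglecf, a sialic acid receptor of these cells, rose by 1.45 and Krt79, a keratin found in them, by 2.06. Of 19 neutrophil genes 3 rose (Chil3, Wfdc21 and Mmp9) and 2 fell (Ngp and Camp), and Camp was not called without P5 replicates 1 or 3 or P56 replicates 1 or 3. Ngp, a granule protein made in immature neutrophils, read 979.5, 1051 and 1301 units at P5 and 149, 141 and 121 at P56 (change -2.79, SE 0.70). S100a8 and S100a9, the main cytosolic proteins of mature neutrophils, changed by 0.42 and 0.23 (adjusted p = 0.66 and 0.845).

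Genes of the oxygen response depended on P5 replicate 1. Of 25 p53 targets 4 fell (Eda2r, Zmat3, Psrc1 and Gtse1) and 3 rose (Pmaip1, Rrm2b and Tigar) with all arrays, and 7 fell and 3 rose without replicate 1. Over all genes 12.4% were called lower and 16.2% higher with all arrays, and 8.86% and 11.5% without replicate 1. Cdkn1a, the p21 inhibitor of the cell cycle, read 1296, 8384 and 8155 units at P5 and 1611, 1603 and 1728 at P56. Replicate 1 lay at the level of the Gsr-KO air arrays of P5 (1881, 883 and 924) and of the adults, and replicates 2 and 3 lay at that of the Gsr-WT arrays after hyperoxia (8589, 6471 and 6329). The change was -1.43 with all arrays (SE 0.55, adjusted p = 0.0545, not called) and -2.31 without replicate 1 (adjusted p = 0.0014). A second Cdkn1a probe set was called with all arrays (change -1.78, adjusted p = 0.0288). Eda2r, a death-domain receptor of the TNF family, read 84.4, 738 and 723 and then 82.1, 69.6 and 79.3, a change of -1.95 that was called with all arrays (adjusted p = 0.00816), was -2.87 without replicate 1, and was not called without P5 replicate 2 or 3. All P56 arrays of Eda2r read below 100.4 units, so the size of its fall is set in part by the constant before the logarithm. Zmat3, an RNA-binding p53 target, read 603, 1891 and 1939 and then 494, 494 and 448 (change -1.40, and -1.94 without replicate 1). The same array stood apart for each of these genes. Psrc1, a spindle protein, read 401, 1439.6 and 1180.3 and then 130.3, 115 and 112 (change -2.65, and -3.20 without replicate 1). Mdm2, the ubiquitin ligase that limits p53, changed by 0.43 (adjusted p = 0.374), and Pmaip1, the death protein Noxa, was higher in the adults by 1.74 with no overlap. Rrm2b and Tigar were not called with the median of their probe sets.

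The mean level of the p53 list, centred on each gene's mean over the series, was -0.18, 0.67 and 0.62 on the P5 arrays and -0.03, -0.03 and -0.02 on the P56 arrays. The same level was -0.19, -0.25 and -0.28 at P5 in Gsr-KO air and 0.59, 0.51 and 0.50 at P5 in Gsr-WT hyperoxia. P5 replicate 1 lay beside the air arrays, and replicates 2 and 3 lay above every other array of these groups. In Gsr-WT air the P5 levels were -0.28, -0.25 and 0.57, so that 1 array of that group lay at the level of the hyperoxia arrays. In air the p53 list had 5 members that rose with age and 1 that fell, and in Gsr-WT after hyperoxia 3 and 9. The shares over all genes were 15.2% higher and 14.3% lower in air, and 13.4% and 10.7% in Gsr-WT after hyperoxia.

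NRF2 targets showed the same array apart. With all arrays 9 of 24 rose (median 0.48). With replicate 1 left out 2 rose (Gstm1 and Fth1) and 1 fell (Hmox1), with a median of 0.19. Gclc, the catalytic subunit of glutamate-cysteine ligase, read 827, 2486 and 1931 units at P5 and 2807, 2118 and 2073 at P56 (change 0.53, adjusted p = 0.187, and 0.08 without replicate 1). A second Gclc probe set was called with all arrays (change 0.76, adjusted p = 0.0287). Hmox1, which breaks down haem, read 429, 1258 and 865 and then 665, 458 and 413, a change of -0.61 that was not called with all arrays (adjusted p = 0.148) and of -1.02 that was called without replicate 1 (adjusted p = 0.0175). Gstm1, a glutathione transferase, read 2449, 4626 and 4518 and then 10975, 6900.1 and 6187 (change 1.06, adjusted p = 0.00148), and its rise of 0.76 was called without replicate 1 as well. Fth1, the ferritin heavy chain, was not called after quantile normalization. Replicate 1 had the lowest P5 value of all 3 genes. Nqo1, a quinone reductase, changed by 0.28 (adjusted p = 0.396) after hyperoxia and rose by 1.22 in air (adjusted p = 0.000259). In air 18 of the 24 targets rose from P5 to P56. The level of the list was -0.42, 0.37 and 0.29 on the P5 arrays after hyperoxia and 0.59, 0.41 and 0.36 at P56, against -0.51, -0.33 and -0.42 and 0.44, 0.52 and 0.56 in air. What set replicate 1 apart was not tested.

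Other genes of the glutathione and thioredoxin systems changed singly, 6 higher and 3 lower (Gpx7, Gpx8 and Prdx4) of 27, and 5 and 1 without P5 replicate 1. Over all genes the shares were near these, 16.2% higher and 12.4% lower. Gpx3, the secreted glutathione peroxidase, read 2414, 3862 and 3897 units at P5 and 11816, 10277 and 11402 at P56 (change 1.74, SE 0.49, adjusted p = 0.00785). Ggt5, a gamma-glutamyl transferase, rose by 1.17 and Mgst1, a microsomal glutathione transferase, by 0.86, while Gpx7, a peroxidase of the endoplasmic reticulum, fell by 1.18. Gpx8 and Prdx4 were not called without P5 replicates 1 or 2 or P56 replicates 1 or 3, nor was Gpx8 without P5 replicate 3. Gss, glutathione synthetase, and Gpx1, the cytosolic peroxidase, changed by 0.22 and 0.34 (adjusted p = 0.702 and 0.314).

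**Figure D3:**
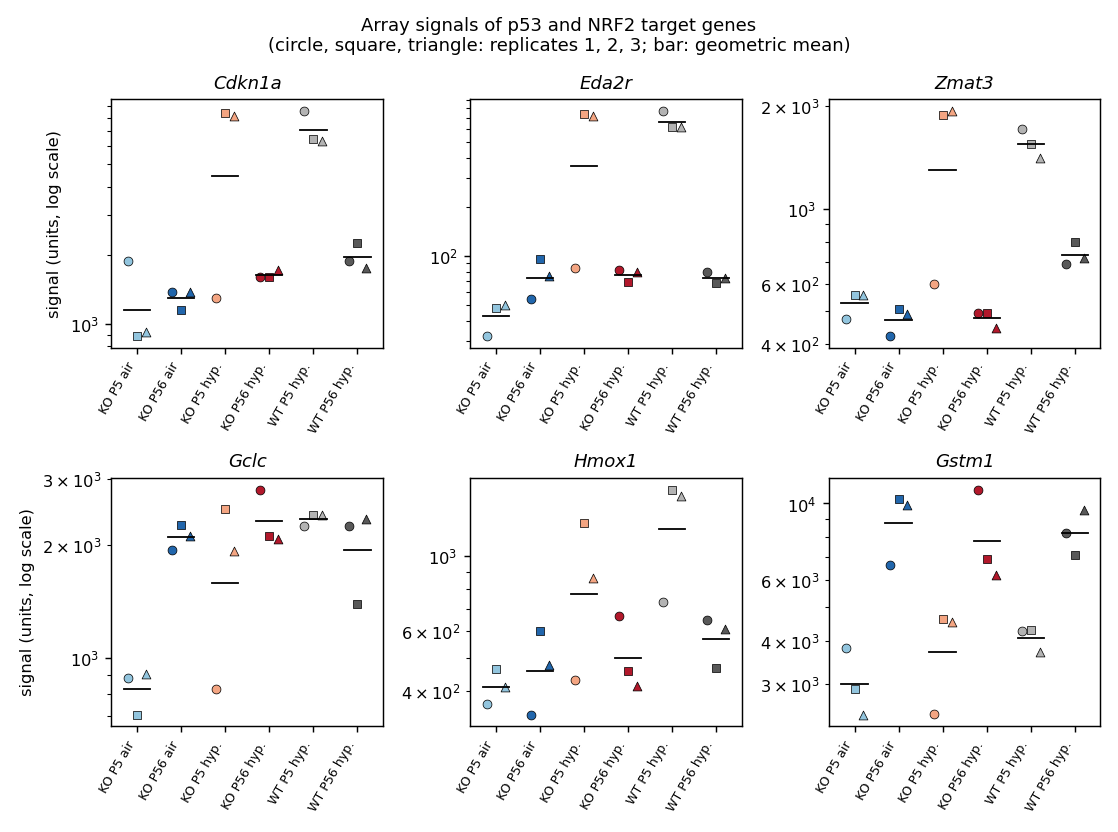
Signal of 3 p53 targets (Cdkn1a, Eda2r, Zmat3) and 3 NRF2 targets (Gclc, Hmox1, Gstm1) on each array (y axis, units, log scale). Circles, squares and triangles are replicates 1, 2 and 3, and bars are geometric means. In the Gsr-KO P5 hyperoxia group replicate 1 lies below replicates 2 and 3 in all 6 panels, with Cdkn1a at 1296 units against 8384 and 8155.

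The lowest changes of all belonged to skeletal muscle and stratified epithelium. Of 21 skeletal muscle genes 19 fell, with a median of -3.92, and 17 without P5 replicate 1. Tnnc2, troponin C of fast muscle fibres, read 4121, 3575 and 3661 units at P5 and 7.25, 6.87 and 5.75 at P56, a change of -6.85 (SE 0.99, adjusted p = 7.7e-06), bounded at -4.91. Myh8, the perinatal myosin heavy chain, read 4136, 2999.8 and 3422 and then 9.13, 23.2 and 18.6 (change -6.36, bounded at -4.79). Acta1, skeletal alpha actin, read 7884, 7299 and 6483 and then 133, 84.9 and 89.4 (change -5.83, SE 0.89). All 3 P5 arrays were high, replicate 1 included. In Gsr-KO mice kept in air Tnnc2 read 93.6, 26.9 and 4.86 units at P5 and 138, 32.8 and 19.2 at P56, and Acta1 658, 185 and 247 and 587, 417 and 463, so that both ages were low. Mylpf, a light chain of fast myosin, and Myh3, the embryonic heavy chain, changed by -5.53 (bounded at -4.97) and -5.04.

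In the basal and keratinised epithelium list 12 of 18 genes fell and 1 rose, Rptn (median -1.81), with the same counts without P5 replicate 1. Krt4 and Krt13, the keratin pair of moist stratified epithelium such as oesophagus, were high on the P5 hyperoxia arrays and low on the P5 air arrays of Gsr-KO mice. Krt4 read 3172, 4366 and 2499 units at P5 and 17.1, 61.2 and 49.2 at P56 (change -5.64, bounded at -4.70), against 83.2, 49.7 and 55.0 and 189.6, 131 and 85.4 in air. Krt13 read 2071, 3311 and 1599.6 and then 9.7, 33.0 and 5.84 (change -5.78, bounded at -4.15), against 39.2, 5.49 and 30.6 and 184, 55.0 and 49.8 in air, and the difference of its changes of -6.93 was not called (adjusted p = 0.0503). Krt15, a keratin of basal cells, read 1802, 2025 and 1310.0 and then 2.17, 3.34 and 5.51 (change -5.84, bounded at -3.76), but it was also high on 1 P5 array in air (704, 98.1 and 15.1). Krt5 and Krt14, the keratin pair of basal cells, fell by 2.43 and 1.72.

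The levels of both lists were high together on these arrays and on few others of the series. The level of the skeletal muscle list was 2.92, 2.48 and 2.73 on the Gsr-KO hyperoxia arrays of P5 and -0.87, -0.94 and -0.89 at P56, and that of the keratinised epithelium list 1.43, 1.95 and 1.44 and -0.51, -0.36 and -0.28. In Gsr-KO air the P5 levels were 0.32, -0.65 and -0.90 and -0.19, -0.59 and -0.57. In Gsr-WT after hyperoxia they were -1.10, 0.59 and 1.55 and -0.57, -0.45 and -0.41. Among the other arrays, Gsr-WT air replicate 1 at P5 read 2.13 for muscle and 1.66 for keratinised epithelium, and Gsr-WT replicate 1 at E19 read 1.28 and 1.90. The part of neighbouring tissue in the sampled portion of lung was not tested. No member of the heart list (20 measured) or the liver list (17) was called in limma over all genes, with 0 and 1 at an unadjusted p under 0.05.

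The change with age differed between hyperoxia and air in 11 of 13345 genes (0.0824%), all with a lower change after hyperoxia. Tnnc2 differed by -7.24 (SE 1.39), Krt4 by -6.47 (SE 1.29), Acta1 by -6.42 (SE 1.26), Myh8 by -6.32 (SE 1.19) and Tnnt3, troponin T of fast muscle, by -4.58 (SE 0.86), each with a limma adjusted p of 0.0403. The other 6, which lie outside the rule for named genes, were Atp1b4, Myot, Actn3, Atp2a1, Asb5 and Fbp2. They include Actn3, the actinin of fast fibres, Atp2a1, the calcium pump of fast fibres, Myot, a protein of the muscle Z-disc, and Fbp2, the muscle form of fructose-bisphosphatase. None of the 11 was called without P5 replicate 1, where their adjusted p lay between 0.0544 and 0.0740 and 722 genes had an unadjusted p under 0.05. With all arrays 565 genes had an unadjusted p under 0.05. A share of 0.05 of the 13345 genes is expected there without any difference, and 565 lies below it. The number called was also 0 without any of P5 replicates 2 or 3 or P56 replicates 1, 2 or 3 of the hyperoxia groups, and 0 without replicates 2 or 3 of either air group or P56 air replicate 1. It was 8 without P5 air replicate 1.

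**Figure D4:**
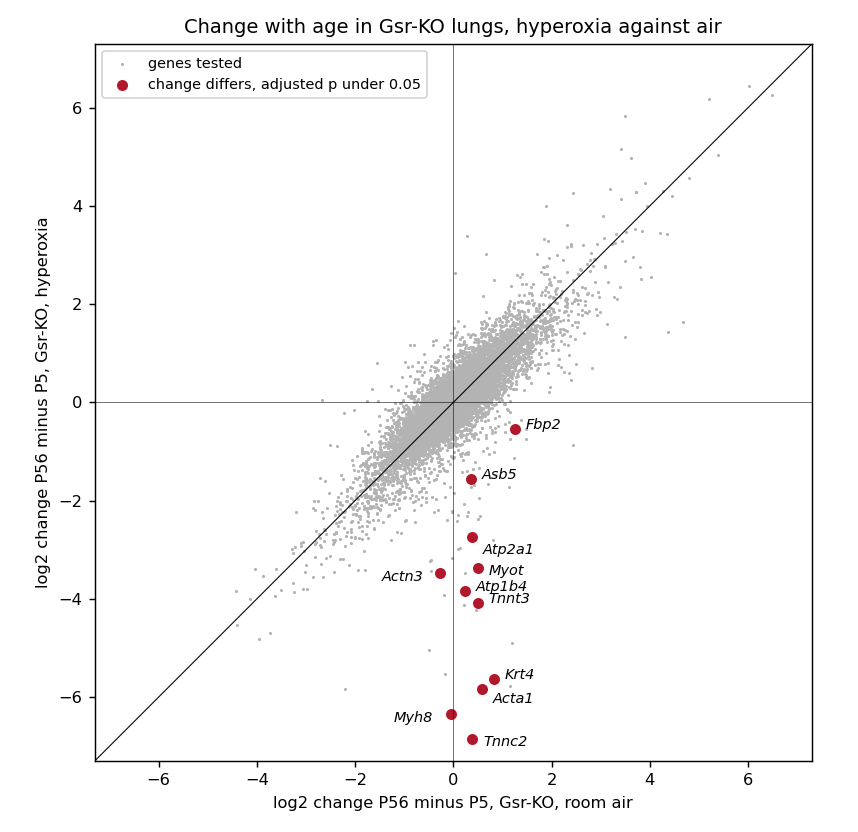
Log2 change from P5 to P56 in Gsr-KO lungs after hyperoxia (y axis) against that in air (x axis), with 1 point per gene tested and the diagonal marking equal change. The 11 genes whose changes differed at a limma adjusted p under 0.05 are in red and lie below the diagonal, from Tnnc2 (-6.85 after hyperoxia, 0.38 in air) to Fbp2 (-0.54 and 1.26).

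Most of the change with age was found in air as well. Of the 3818 genes called after hyperoxia 2705 were called in the same direction in Gsr-KO air, which is 70.8% of the first list and 68.5% of the 3947 genes called in air, and 2 were called in opposite directions. These comparisons share no array, but they share the pooled estimate of each gene's spread. The overlap that this alone would give was not tested. In Gsr-WT after hyperoxia 3217 genes were called, of which 2260 were among the Gsr-KO calls in the same direction (59.2% and 70.3% of each list). No gene was called for a difference in change between the genotypes by limma, where 870 had an unadjusted p under 0.05, and 660 without P5 replicate 1. Cdkn1a read 1895, 2258 and 1757 units in Gsr-WT at P56 and changed there by -1.84 (adjusted p = 0.0163). Tnnc2 changed by -3.19 in Gsr-WT (adjusted p = 0.0188), where the P5 arrays were uneven at 28.3, 444 and 1577 units, and the difference from Gsr-KO was -3.66 (SE 1.39, adjusted p = 0.634). Replicate 2 of the Gsr-WT hyperoxia group at P56 had a log2 ratio of 3' to 5' signal of 2.84 and correlated at 0.932 and 0.933 with its group, so the Gsr-WT values carry that spread.

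**Figure D5:**
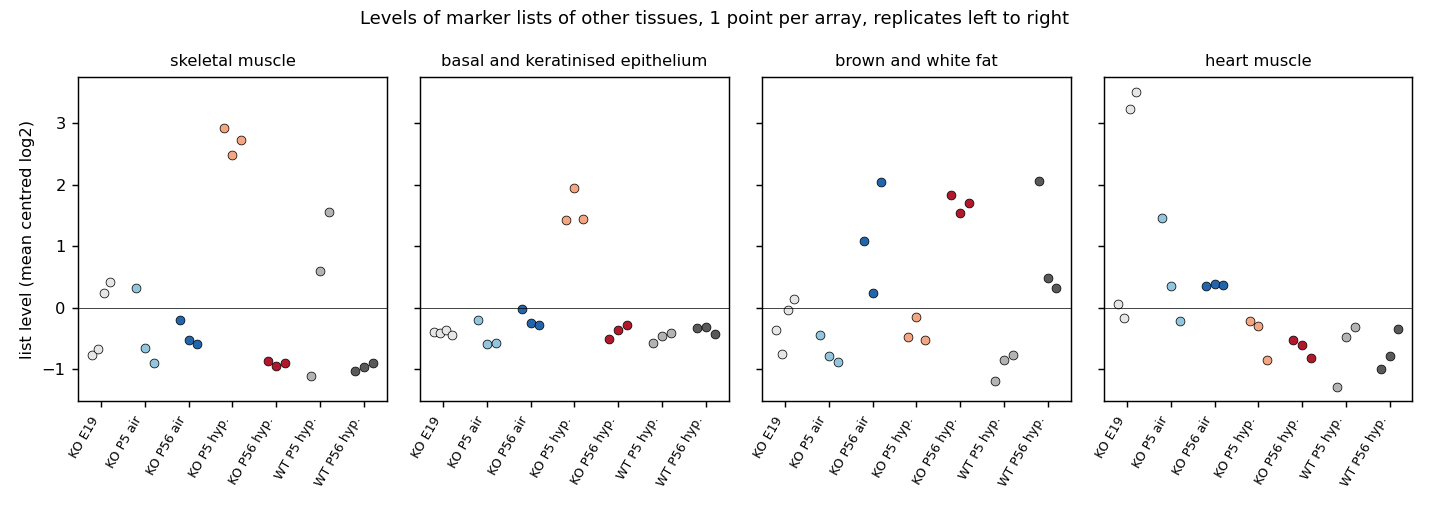
Level of 4 marker lists of other tissues (y axis, mean log2 value centred on each gene's mean over the series) on each array of the Gsr-KO groups and the Gsr-WT hyperoxia groups (x axis). The skeletal muscle level of the 3 Gsr-KO P5 hyperoxia arrays lies between 2.48 and 2.92 and the keratinised epithelium level between 1.43 and 1.95, above the other Gsr-KO arrays, while the fat level is higher at P56 than at P5 and the heart level is highest on 2 E19 arrays.

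Fat markers rose, 10 of 13 with a median of 2.25 and 8 without P5 replicate 1. Tmem26, a membrane protein, was the 1 member that fell (-1.27). Adipoq, the hormone adiponectin, rose by 4.46 and at least 3.49. Ucp1, the uncoupling protein of brown fat, read 4.29, 64.5 and 8.34 units at P5 and 1946, 723 and 440.3 at P56, a change of 4.27 (SE 0.94, at least 2.80). Thrsp, a regulator of fat synthesis, read 39.4, 49.7 and 3.24 and then 5201, 2363 and 2183 (change 5.84, at least 4.58). The level of the fat list was 1.84, 1.55 and 1.71 at P56 after hyperoxia and 1.09, 0.24 and 2.04 in air, so that it varied among adult air lungs from animal to animal. Lrat, which stores vitamin A as retinyl ester and is outside this list, read 169, 125 and 169 units at P5 and 4109, 2962 and 3448 at P56 (change 4.28, SE 0.33, adjusted p = 5.49e-10). Markers of red cell precursors fell in 6 of 24 cases, and 4 without P5 replicate 1. Over all genes 12.4% were called lower, and 8.86% without that array. Slc4a1, the anion exchanger of the red cell membrane, read 3713, 2889 and 3091 and then 207, 255 and 394 (change -3.42, SE 0.55, adjusted p = 3.51e-05), and Alas2, the erythroid enzyme of haem synthesis, fell by 1.27.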

How the data were processed

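Total RNA from part of the lung of each mouse was hybridised to Affymetrix mouse genome arrays. The deposited matrix gives an intensity, not log-transformed, for each of 45101 probe sets and was made with MAS5 per the submitters' processing notes. The MAS5 version is not given in the sources used here. The mean of each array without its lowest and highest 2% was 500.0 units, so no further scaling was done. Groups were taken from the labels alone.

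From these intensity values, log2(value + 26.3) was computed, the constant being the 25th percentile of all values. Probe sets reading over 100.4 units, the median signal of the series, on 3 or more arrays were kept (27089). Of the 45101 probe sets 64 controls, 9160 without a gene symbol in the platform annotation and 932 with several were not used. For each of 13345 genes the probe set of highest mean signal over the 32 arrays was used. All 32 arrays entered 1 fit in limma 3.58.1 (R 4.3.3) with a mean per group, 22 residual degrees of freedom and a variance trend, and contrasts were tested two-sided, with p-values adjusted by Benjamini and Hochberg's method across the 13345 genes. The P5 to P56 change after hyperoxia was also set against that in Gsr-KO air and in Gsr-WT hyperoxia as differences of changes. On simulated data the fit of this comparison found 7.46% of 67 genes given a change of log2 0.5. It found 52.2% of 67 given 1 and 95.5% of 66 given 2, with 2.83% false among its calls. The other genes of the 13345 were given no change between these groups, whereas 28.6% were called in the data. Recovery depends on how many genes change, so these shares need not hold for the data. Precision is limited by the number of arrays. The pooled spread takes in Gsr-KO E19 replicate 1, whose log2 ratio of 3' to 5' signal was 4.37.

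The comparison and the 41 gene lists were chosen with earlier results of these data known. A list level is the mean, over the list, of a log2 value minus that gene's average in the series. The rule for naming took Gsr, the 15 highest and 15 lowest called changes with groups that do not overlap and the same call without P5 replicate 1, the first 4 members of each list, up to 5 called members of each list with the largest change, and the 5 lowest differences of changes. The alternatives were filters, offsets, quantile normalization, centring, the median of a gene's probe sets, no variance trend, a fit of the compared groups without the rest, array weights, a replicate block, Y-linked, liver and 3' to 5' levels as covariates and each array left out in turn.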

Additional observations from a re-analysis of the deposited data

Results flagged for a closer look

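The change from P5 to P56 in Gsr-KO lungs differed between hyperoxia and air in 11 genes by the test of that difference itself, limma's contrast of the changes. The differences, hyperoxia minus air on the log2 scale, were -7.24 for Tnnc2, -6.47 for Krt4, -6.42 for Acta1, -6.32 for Myh8, -4.58 for Tnnt3, -4.07 for Atp1b4, -3.86 for Myot, -3.21 for Actn3, -3.13 for Atp2a1, -1.93 for Asb5 and -1.80 for Fbp2. The adjusted p was 0.0439 for Actn3 and 0.0403 for each of the other 10. Without P5 hyperoxia replicate 1 the differences were -7.17 for Tnnc2, -6.49 for Krt4 and -6.35 for Acta1, with adjusted p of 0.06, 0.062 and 0.062, so that their size was kept and the call was not. Fbp2 is the 1 gene of the 11 whose own change after hyperoxia was not called (-0.54, adjusted p = 0.11). Its change in air was 1.26.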

How the results depend on the processing

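The number of genes called between P5 and P56 after hyperoxia in Gsr-KO lungs was 3818. It was 6129 when the 2 groups were fitted without the rest, 8712 with array weights and 1372 without the 2 P5 arrays of low Xist, a setting added after the data were seen, which leaves 1 array at P5 that is assumed to vary like the other groups. It lay between 2718 and 3657 with each of the 6 arrays left out in turn and within 1.5 times of 3818 under every other setting run. The 11 genes whose change differed between hyperoxia and air became 0 with a filter at 2 times the median, an offset of 1, quantile normalization, centring or a replicate block, 18 with an offset equal to the median, 51 when the 4 groups were fitted without the rest, 1574 with array weights, and 0 to 8 with each array left out in turn. The 0 genes for the difference between genotypes became 2 with an offset equal to the median, 12 when the 4 groups were fitted without the rest and 4414 with array weights, and stayed at 0 with each array left out. The causes were not tested.

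Replicate numbers recur across groups. Deviations from the group mean were correlated for 21 like-numbered pairs of arrays, and 5 of the correlations exceeded 0.1 (lowest -0.41, highest 0.25), so no pairing was assumed. The 3 pairs of the Gsr-KO hyperoxia groups at P5 and P56 lay between 0.03 and 0.06. The 5 over 0.1 were all pairs of a Gsr-KO and a Gsr-WT hyperoxia array of the same age. At P5 these pairs read 0.25, 0.11 and 0.17. At P56 they read 0.23, 0.16 and -0.24, so that only the last lay below 0.1. With the replicate number as a block 3739 genes were called for the age change and 0 for either difference.

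Of 153 called genes named in the text, 128 kept their call under every setting other than that without the 2 P5 arrays of low Xist, where 108 were still called, and 103 kept it under every setting run on them. None changed direction. For 75 of the named genes another probe set was measured. Of 102 such probe sets of called genes 73 were called in the same direction and none in the other, and 3 of genes not called were called (Cdkn1a, Col3a1 and Gclc). Changes near log2 0.5 were rarely recovered on simulated data with 3 arrays in a group, where far fewer genes were changed than were called here. MAS5 values without detection calls limit what can be said below the median signal.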

Other observations

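Pathways of acute stress and the clock changed in part. Of 23 immediate early genes 8 rose, with the same number without P5 replicate 1, and 1 fell (Myc, by 0.43), which was not called with any 1 of the 6 arrays left out. Fos, a subunit of the AP-1 transcription factor, read 1311, 1322 and 1841 units at P5 and 2889, 3197 and 6237 at P56 (change 1.38, SE 0.26, limma adjusted p = 0.000255), while Egr1, a zinc finger factor induced by the same stimuli, changed by -0.36 (limma adjusted p = 0.398). Dusp1, a phosphatase of MAP kinases, and Klf2, a factor of endothelium under flow, rose by 1.25 and 1.05. In the glucocorticoid and clock list 6 of 21 fell, among them Per2 and Dbp, which oscillate over the day, by 1.27 and 1.20, and 1 rose (Npas2, by 0.83), which was not called without P5 replicates 1 or 2 or P56 replicates 1 or 2. Second probe sets of Per2 and Dbp changed by -0.48 and -0.72 and were not called (limma adjusted p = 0.266 and 0.0643). Over all genes 28.6% were called, 16.2% higher and 12.4% lower. Without P5 replicate 1 these 2 shares were 11.5% and 8.86%. The immediate early genes that rose and the clock list genes that fell thus lay above the shares over all genes. The time of day at which lungs were taken is not among the labels. Of 23 hypoxia genes 5 rose and 2 fell (median 0.40), and 4 and 2 without P5 replicate 1. The shares over all genes were 16.2% higher and 12.4% lower, so these counts lie near them. P4ha2, a collagen prolyl hydroxylase, rose by 1.37, Ndrg1 by 0.95, Bnip3, a mitophagy receptor, by 0.85, Pfkfb4, a regulator of glycolysis, by 0.83 and Kdm3a, a histone demethylase, by 0.60. The calls of the last 4 were each lost without P56 replicate 3, those of Bnip3, Kdm3a and Ndrg1 also without P56 replicate 2, that of Bnip3 without P5 replicate 1, those of Kdm3a and Ndrg1 without P5 replicate 2 and that of Ndrg1 without P5 replicate 3. Egln3, an oxygen-sensing hydroxylase, fell by 1.56 and Ak4, a mitochondrial adenylate kinase, by 1.20.

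Mesothelial markers rose in 6 of 11 cases, with the same number without P5 replicate 1. Gpm6a, a membrane glycoprotein, read 1046, 1331 and 1931 units at P5 and 4044, 8657 and 8216 at P56 (change 2.23, SE 0.36). Slpi, a secreted protease inhibitor that airway cells make too, rose by 1.86 and Lrrn4 by 1.61. Fabp1, a fatty acid-binding protein best known from liver and a member of the alveolar macrophage list, was among the 15 highest changes. It read 55.7, 1.88 and 23.8 units at P5 and 542, 859 and 1254 at P56 (change 4.15, SE 1.16, at least 2.77). No gene of the liver list was called by limma, and 1 of its 17 had an unadjusted p under 0.05. Stfa3, a stefin of myeloid cells, was among the 15 lowest at 890.1, 759.9 and 922 and then 8.7, 3.35 and 11.4 (change -4.70, bounded at -2.80).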
